A study of Homo sapiens with 17 samples.

Results

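The ephrin, Slit, Robo and netrin genes were followed in human neurons with and without a knockout of UTX. Their members were taken by symbol from the RNA count table: every gene named EPHA or EPHB with a number, EFNA or EFNB, SLIT, ROBO, NTN, NTNG or UNC5 with its number or letter, and DCC and NEO1. That gave 41 of 60199 genes, of which 39 were among the 18614 genes that passed the filter on low counts. The 41 are 14 Eph receptor genes (9 EPHA and 5 EPHB), 8 ephrin genes, 3 Slit genes, 4 Robo genes, 4 netrin genes, 2 netrin-G genes, 4 UNC5 genes, DCC and NEO1. EPHA1 and ROBO4 did not pass the filter, with at most 0.717 and 0.912 CPM in any library (CPM, the count scaled to the total of its library).

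These are the classic cues of axon guidance, the process by which a growing neurite finds its way. Ephrins are membrane-bound ligands and Eph receptors are receptor tyrosine kinases on the touching cell, and both sides can signal. Slits are secreted proteins that repel axons through Robo receptors, and netrins are secreted, laminin-related proteins that attract axons through DCC or NEO1 and repel them through UNC5 receptors. Outside the nervous system the same families steer vessel, epithelial and mesenchymal cells.

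UTX, also called KDM6A, takes methyl groups off lysine 27 of histone H3. Its substrate H3K27me3 marks chromatin held silent by Polycomb complexes and was mapped beside the RNA. All samples were neurons at day 40 of culture, derived from H9, an established human embryonic stem cell line. For RNA there were 3 libraries of wild type (WT) and 5 of the genotype UTX-/- (KO), of which 3 were line KO1 and 2 line KO2. ChIP was made in 1 sample per line and mark for H3K27me3 and H3K36me3, a mark of transcribed gene bodies, and 1 peak list per genotype was used here. The labels of both KO lines name the same KO list, and whether it joins the reads of KO1 and KO2 is not stated, so each KO peak below belongs to that list and not to a known line. Neither the edit nor whether a line is 1 clone is stated in the labels. Whether libraries of a line were separate differentiations is not said either, and p-values below speak only of the spread among these libraries.

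The promoters below are shown because the RNA or the H3K27me3 peaks of their genes differed between the genotypes. SLIT2 was higher in all KO libraries and had no H3K27me3 peak, SLIT3 had a longer peak in WT, UNC5C and EPHB3 had a promoter peak only in the WT list, and EFNA3 and NTNG1 only in the KO list. Each is the 250 bases before the start site, 5′ to 3′ along the gene, from RefSeq on GRCh38.p14, with each CG dinucleotide in capitals because Polycomb-marked promoters are typically rich in CG.
SLIT2 promoter, chr4:20251655-20251904, plus strand, 30 CG: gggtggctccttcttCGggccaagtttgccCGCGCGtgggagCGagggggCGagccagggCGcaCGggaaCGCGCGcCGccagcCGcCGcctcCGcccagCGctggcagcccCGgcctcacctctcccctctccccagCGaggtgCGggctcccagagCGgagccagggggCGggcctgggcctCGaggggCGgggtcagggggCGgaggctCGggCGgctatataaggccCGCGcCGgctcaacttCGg
SLIT3 promoter, chr5:169301140-169301389, minus strand, 16 CG: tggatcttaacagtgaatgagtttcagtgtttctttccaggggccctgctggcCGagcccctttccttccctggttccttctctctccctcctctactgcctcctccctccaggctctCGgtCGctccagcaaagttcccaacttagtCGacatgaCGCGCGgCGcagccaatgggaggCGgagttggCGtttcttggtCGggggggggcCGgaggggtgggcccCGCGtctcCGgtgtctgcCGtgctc
UNC5C promoter, chr4:95548974-95549223, minus strand, 17 CG: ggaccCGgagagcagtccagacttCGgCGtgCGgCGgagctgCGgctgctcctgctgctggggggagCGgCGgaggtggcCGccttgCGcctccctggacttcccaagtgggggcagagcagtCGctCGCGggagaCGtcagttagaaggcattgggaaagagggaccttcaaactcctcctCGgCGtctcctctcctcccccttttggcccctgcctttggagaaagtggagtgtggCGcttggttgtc
EPHB3 promoter, chr3:184561535-184561784, plus strand, 21 CG: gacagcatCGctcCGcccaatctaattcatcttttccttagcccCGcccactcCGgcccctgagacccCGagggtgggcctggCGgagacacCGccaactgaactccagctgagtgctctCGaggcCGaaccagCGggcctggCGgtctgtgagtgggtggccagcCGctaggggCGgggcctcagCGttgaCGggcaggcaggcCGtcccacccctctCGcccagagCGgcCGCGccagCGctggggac
EFNA3 promoter, chr1:155078587-155078836, plus strand, 23 CG: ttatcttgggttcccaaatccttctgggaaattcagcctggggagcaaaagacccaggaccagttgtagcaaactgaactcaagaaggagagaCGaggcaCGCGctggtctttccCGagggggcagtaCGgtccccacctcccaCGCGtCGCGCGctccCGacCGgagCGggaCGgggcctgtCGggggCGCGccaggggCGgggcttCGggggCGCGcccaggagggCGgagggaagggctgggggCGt
NTNG1 promoter, chr1:107139838-107140087, plus strand, 10 CG: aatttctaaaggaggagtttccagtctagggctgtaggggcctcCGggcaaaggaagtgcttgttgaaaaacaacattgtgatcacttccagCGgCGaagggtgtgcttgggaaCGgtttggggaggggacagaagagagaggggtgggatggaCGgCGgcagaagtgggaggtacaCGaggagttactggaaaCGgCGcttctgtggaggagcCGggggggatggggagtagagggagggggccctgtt

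Of the 41 genes, 34 matched a promoter sequence in the RefSeq table, and NTN1, NTN3, NTNG2, EPHA10, UNC5B, UNC5D and EFNB3 did not. The dinucleotide CG reads the same on both strands and occurs in 98.9% of 12418 promoters of tested genes. The 34 promoters held a median of 18 CG each, from 3 to 42, beside a median of 20.0 over the 12418. The 9 genes among them with an H3K27me3 promoter peak in both lists had a median of 20.0 CG, and the 19 without a peak had 17.0. For genes with several start sites the sequence is that of the first listed start, which need not be the marked one. For ROBO3 that start, chr11:124876182, lies outside its peaks, which end at 124871315 in the WT list and 124871397 in the KO list. By CG content these promoters therefore lay near the typical tested gene.

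Some facts of the whole series bear on every RNA value. Library totals ran from 17.4 to 31.5 M estimated counts (M, mega), and the 41 genes took 0.328% to 0.362% of each. KDM6A RNA ran from 35.18 to 36.03 CPM in WT and from 25.93 to 40.78 in KO. The ranges overlapped, so this gene-level count does not check the KO labels, and WT, KO1 and KO2 stand throughout for libraries labelled so. KO1 replicate 2 and both KO2 libraries stood apart from the rest. Their summed level of 15 mesenchymal markers (collagens, LUM, TWIST1 and others) was 26770 to 68560 CPM, against 132.4 to 1883 in WT, 1285 in KO1 replicate 1 and 1041 in KO1 replicate 3. Their summed level of 15 pan-neuronal markers was 885.5 to 3266, against 4359 to 6661 in WT, 4728 in KO1 replicate 1 and 5709 in KO1 replicate 3. All 15 mesenchymal markers were above the highest WT library in each of the 3. KO1 replicates 1 and 3 were above it in 4 and 3 of the 15, in 7 and 5 of 10 endothelial markers and in 5 and 3 of 7 epithelial markers. KO1 replicate 2, KO2 replicate 1 and KO2 replicate 2 were above it in 6, 8 and 6 of the endothelial and 7, 6 and 6 of the epithelial markers. The summed level of 12 neural progenitor markers was 787.8 to 1835 in these 3. It was 3524 to 4032 in WT, 3311 in KO1 replicate 1 and 3338 in KO1 replicate 3. The labelled neurons thus expressed neuronal markers in every library, at lower sums in these 3. In bulk RNA, fewer cells of a type and less RNA per cell cannot be told apart. The part of the mesenchymal or other marker RNA in each result below was not tested.

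Members of the family went both ways between KO and WT. The median edgeR log2 fold change of the 39 tested genes, KO over WT, was -0.03, with 19 above and 20 below 0, beside -0.01 over all tested genes. No gene of the family, and none of the 18614 tested (0%), passed an edgeR false discovery rate of 0.05 in either direction. At an unadjusted edgeR p under 0.05, 9 members were higher in KO, 23.1% of those tested, against 11.5% of all genes. By the same measure 4 members were lower, 10.3%, against 6.45% of all genes. The authors' deposited table, made with DESeq2, called 4 members higher in KO at an adjusted p under 0.05, namely SLIT2, SLIT3, UNC5C and EFNA5. That is 10.3% of the tested members, against 5.23% of all tested genes, and it called 0 members lower, against 1.24%. The 5 KO libraries lay above all 3 WT libraries for SLIT2, UNC5C, EFNA5 and NEO1, 10.3% of members against 6.29% of all genes. They lay below all 3 for EFNA3, ROBO2 and NTN4, 7.69% against 6.16%.

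**Figure D1:**
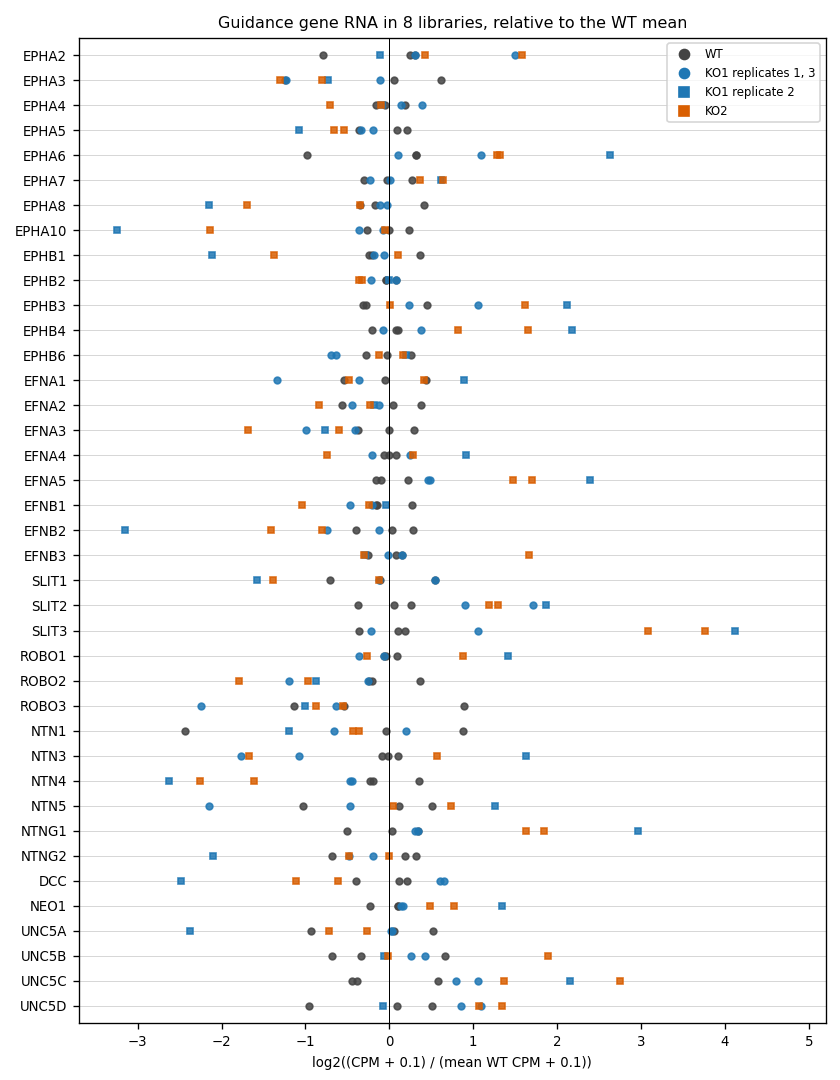
Each row is 1 of the 39 tested genes and each point 1 library, plotted as the log2 ratio of its CPM to the WT mean after adding 0.1. Circles are WT (grey) and KO1 replicates 1 and 3 (blue); squares are KO1 replicate 2 (blue) and KO2 (orange). For SLIT3, NTNG1 and EFNA5 the 3 squares lie well to the right of the circles, while all 5 KO points of SLIT2 lie to the right of WT.

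Among the Slit ligands, SLIT2 was higher in every KO library. CPM was 193.2, 168.1 and 124.8 in WT replicates 1 to 3, 529.9, 590.1 and 302.4 in KO1 replicates 1 to 3 and 370.5 and 398.2 in the KO2 pair. The lowest KO library, KO1 replicate 3, lay above the highest WT library. KO1 replicate 1, whose summed mesenchymal level lay within the WT range, was second highest of all 8. That library was not at WT level in each marker: TAGLN, an actin-binding smooth muscle gene, was at 312.5 CPM in it and 51.02 in KO1 replicate 3, against at most 19.15 in WT. ACTA2, smooth muscle actin, was at 150.6 and 25.85, against at most 19.47, and the endothelial receptor KDR at 18.09 and 1.909, against at most 1.662. Mean CPM was 162.0 ± 34.6 (SD) over the 3 WT libraries and 438.2 ± 118.4 over the 5 KO libraries, a 2.70-fold difference. On the log2 scale edgeR gave 1.44 ± 0.26 (SE; adjusted p = 0.243). In the authors' deposited table (DESeq2) SLIT2 rose by 1.45 on the log2 scale, with an adjusted p of 0.000132. With KO1 replicate 2 and both KO2 libraries left out, the DESeq2 value was 1.36 with an adjusted p of 0.00116. The same DESeq2 fit called TAGLN (3.97, adjusted p = 0.00862) and KDR (3.15, adjusted p = 0.0107) higher too, so SLIT2 and these markers were higher together there. Leaving out each library in turn, DESeq2 kept the SLIT2 call in 8 of 8 fits.

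SLIT3 was higher in a different set of libraries. Its CPM was 20.06, 27.74 and 29.44 in WT replicates 1 to 3, 22.18, 448.7 and 53.63 in KO1 replicates 1 to 3 and 218.9 and 351.2 in the KO2 pair. KO1 replicate 1 lay within the WT range, and the 3 libraries with high mesenchymal RNA held all values above 200. Mean CPM was 25.75 ± 4.997 (SD) over the 3 WT libraries and 218.9 ± 184.6 over the 5 KO libraries, 8.50-fold apart. By edgeR the log2 fold change was 3.09 ± 0.97 (SE; adjusted p = 0.243), and SLIT3 rose by 3.11 in the authors' deposited table (DESeq2, adjusted p = 0.00594). Without those 3 libraries the DESeq2 value was 0.56 with an adjusted p of 0.791. The DESeq2 call held in 6 of 8 fits with 1 library left out; adjusted p was 0.0658 without WT replicate 1 and 0.0507 without WT replicate 2.

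SLIT1, the third secreted Slit, overlapped between the genotypes. Its CPM was 205.0, 130.0 and 85.75 in WT replicates 1 to 3, 205.2, 47.08 and 128.5 in KO1 replicates 1 to 3 and 128.9 and 53.81 in the KO2 pair. The edgeR log2 fold change was -0.32 ± 0.51 (SE; adjusted p = 0.738). It was 0.25 by DESeq2 without the 3 libraries and, by edgeR, 0.06 without WT replicate 1, so the sign depended on which libraries entered.

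Of the Robo receptors, ROBO2, a Slit receptor of growing axons, had lower values in KO. Its CPM was 104.0, 158.2 and 106.8 in WT replicates 1 to 3, 53.61, 66.90 and 102.8 in KO1 replicates 1 to 3 and 35.48 and 62.82 in the KO2 pair. Every KO library lay below every WT library, with KO1 replicate 3 close to the lowest WT value. In edgeR the log2 difference was -0.94 ± 0.31 (SE; adjusted p = 0.245), and the authors' deposited table (DESeq2) gave an adjusted p of 0.102. ROBO1, its close relative, had an edgeR log2 fold change of 0.50 (adjusted p = 0.517) with 497.8 in KO1 replicate 2 and 343.8 in KO2 replicate 2 against 179.0 to 200.0 in WT. ROBO3, which helps commissural axons to cross the midline, ranged from 47.50 to 193.2 in WT and from 21.97 to 70.91 in KO, with a log2 fold change of -0.96 (adjusted p = 0.322).

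**Figure D2:**
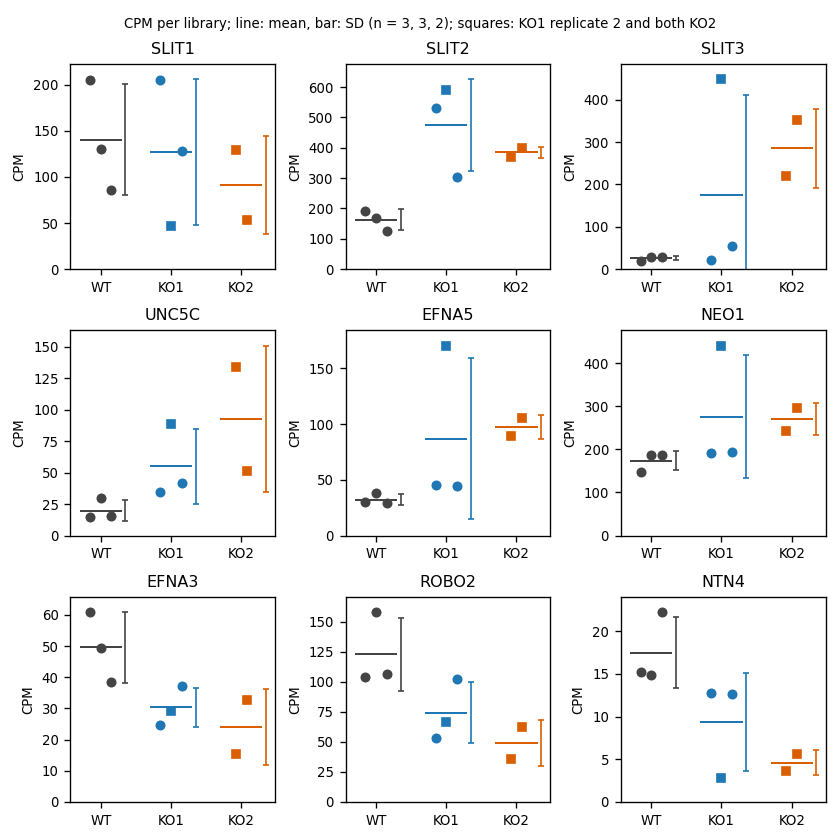
CPM in each library for 9 genes, by line (WT n = 3, KO1 n = 3, KO2 n = 2), with the mean as a line and the SD as a bar beside the points, drawn down to 0 at most. Squares mark KO1 replicate 2 and both KO2 libraries; for SLIT3 and EFNA5 the square of KO1 replicate 2 is the highest point, and for NTN4 it is the lowest.

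Among the netrin receptors, UNC5C, which mediates repulsion by netrin, was higher in KO. Its CPM was 14.51, 29.73 and 15.18 in WT replicates 1 to 3, 34.56, 88.67 and 41.35 in KO1 replicates 1 to 3 and 133.8 and 51.28 in the KO2 pair. The groups did not overlap, and the gap between WT replicate 2 and KO1 replicate 1 was small beside the spread within KO. Mean CPM was 19.80 ± 8.60 (SD) over the 3 WT libraries and 69.92 ± 41.35 over the 5 KO libraries, 3.53-fold apart. The edgeR log2 fold change was 1.82 ± 0.52 (SE; adjusted p = 0.243). UNC5C rose by 1.83 in the authors' deposited table (DESeq2, adjusted p = 0.0126). Without the 3 libraries the DESeq2 value was 0.93 with an adjusted p of 0.237. With 1 library left out, DESeq2 called it in 6 of 8 fits; adjusted p was 0.121 without WT replicate 1 and 0.131 without WT replicate 3.

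The other netrin receptors split. NEO1, a receptor for netrins and RGM proteins, had 147.7, 186.2 and 186.2 CPM in WT replicates 1 to 3, 191.3, 440.4 and 194.4 in KO1 replicates 1 to 3 and 243.4 and 296.3 in the KO2 pair. The groups did not overlap, but KO1 replicates 1 and 3 lay only just above the highest WT library. Its edgeR log2 fold change was 0.66 ± 0.29 (SE; adjusted p = 0.283), and it was 0.15 by DESeq2 without the 3 libraries (adjusted p = 0.965). DCC, the attractive netrin receptor, had 238.7, 253.8 and 166.1 in WT replicates 1 to 3, 334.0, 39.28 and 344.6 in KO1 replicates 1 to 3 and 143.6 and 101.3 in the KO2 pair. Here the KO libraries fell on both sides of WT: KO1 replicates 1 and 3 were the 2 highest of all 8, and the libraries with high mesenchymal RNA were the 3 lowest. The pooled edgeR log2 fold change was -0.19 ± 0.63 (SE; adjusted p = 0.882), and the DESeq2 value without the 3 libraries was 0.62 (adjusted p = 0.178).

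UNC5D, another repulsive receptor, had 7.214, 20.19 and 15.02 CPM in WT replicates 1 to 3, 25.72, 13.47 and 30.28 in KO1 replicates 1 to 3 and 36.15 and 29.78 in the KO2 pair. Only KO1 replicate 2 overlapped WT; the edgeR log2 fold change was 0.94 ± 0.40 (SE; adjusted p = 0.274). UNC5A and UNC5B overlapped between the genotypes, with edgeR log2 fold changes of -0.45 (adjusted p = 0.634) and 0.71 (adjusted p = 0.465).

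Of the netrin ligands, NTN1 and NTN3 gave no steady difference. NTN1, the netrin of the floor plate, had 7.70, 41.08 and 77.49 CPM in WT replicates 1 to 3, 48.26, 18.35 and 26.58 in KO1 replicates 1 to 3 and 32.65 and 31.16 in the KO2 pair. The WT range enclosed all KO libraries, and the edgeR log2 fold change of -0.42 (adjusted p = 0.706) became 0.36 without WT replicate 3. NTN3 had 3.769, 3.291 and 3.486 in WT replicates 1 to 3, 0.9601, 11.11 and 1.615 in KO1 replicates 1 to 3 and 1.03 and 5.252 in the KO2 pair. KO1 replicates 1 and 3 and KO2 replicate 1 lay below WT, and the other 2 KO libraries above it. The pooled edgeR log2 fold change was 0.18 (adjusted p = 0.918), against -1.42 by DESeq2 without the 3 libraries (adjusted p = 0.0443), where NTN3 was the 1 member called lower among 0.543% of all genes.

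NTN4, a netrin of basement membranes, was lower in KO in values. It had 15.24, 14.88 and 22.26 CPM in WT replicates 1 to 3, 12.78, 2.75 and 12.63 in KO1 replicates 1 to 3 and 3.583 and 5.648 in the KO2 pair. The groups did not overlap, and the libraries with high mesenchymal RNA were the 3 lowest. The edgeR log2 fold change was -1.22 ± 0.52 (SE; adjusted p = 0.277). NTN5 stayed at 1.908 CPM or below in all libraries.

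NTNG1, a membrane-anchored netrin-G that binds a partner on the facing neuron rather than DCC, had 5.958, 7.406 and 4.076 in WT replicates 1 to 3, 7.226, 45.91 and 7.372 in KO1 replicates 1 to 3 and 18.19 and 21.06 in the KO2 pair. KO1 replicates 1 and 3 lay within the WT range and the 3 other KO libraries above it. By edgeR its log2 fold change was 1.77 ± 0.65 (SE; adjusted p = 0.251), the authors' deposited table (DESeq2) gave an adjusted p of 0.0599, and the DESeq2 value without the 3 libraries was 0.32 (adjusted p = 0.957). NTNG2 overlapped, with an edgeR log2 fold change of -0.50 (adjusted p = 0.516).

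Among the ephrins, EFNA5, an A-type ligand best known from the mapping of retinal axons, was higher in KO. Its CPM was 30.03, 37.82 and 29.01 in WT replicates 1 to 3, 45.38, 170.4 and 44.64 in KO1 replicates 1 to 3 and 89.54 and 105.2 in the KO2 pair. All 5 KO libraries lay above WT, and KO1 replicates 1 and 3 were the closest to it. Mean CPM was 32.29 ± 4.82 (SD) over the 3 WT libraries and 91.04 ± 51.81 over the 5 KO libraries, 2.82-fold apart. The edgeR log2 fold change was 1.49 ± 0.46 (SE; adjusted p = 0.243), and EFNA5 rose by 1.52 in the authors' deposited table (DESeq2, adjusted p = 0.0326). Without the 3 libraries the DESeq2 value was 0.47 with an adjusted p of 0.333. With 1 library left out, DESeq2 called EFNA5 in 2 of 8 fits, those without KO1 replicate 1 or 3; in the other 6 the adjusted p went up to 0.191.

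EFNA3 had lower values in KO. Its CPM was 60.91, 49.44 and 38.34 in WT replicates 1 to 3, 24.76, 29.13 and 37.18 in KO1 replicates 1 to 3 and 15.41 and 32.55 in the KO2 pair. The groups did not overlap, though KO1 replicate 3 lay close to WT replicate 3. In edgeR its log2 fold change was -0.83 ± 0.28 (SE; adjusted p = 0.244), and the authors' deposited table (DESeq2) gave an adjusted p of 0.109. The other 6 ephrin genes overlapped between the genotypes, with edgeR log2 fold changes from -0.96 for EFNB2 (adjusted p = 0.350) to 0.47 for EFNB3 (adjusted p = 0.587). EFNB2, the ligand of EPHB4 at the border of arteries and veins, was lowest in KO1 replicate 2, at 61.73 CPM against 416.9 to 668.2 in WT.

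None of the 13 tested Eph receptor genes was called in the authors' deposited table, and WT and KO libraries overlapped in all 13; their median edgeR log2 fold change was -0.15. EPHB4 had 56.94, 46.36 and 57.65 CPM in WT replicates 1 to 3, 69.94, 242.8 and 50.84 in KO1 replicates 1 to 3 and 95.05 and 168.9 in the KO2 pair (edgeR log2 fold change 1.23 ± 0.50 SE, adjusted p = 0.269). EPHB3 had 22.82, 23.38 and 38.77 in WT replicates 1 to 3, 58.97, 123.4 and 33.39 in KO1 replicates 1 to 3 and 28.58 and 87.35 in the KO2 pair (1.23 ± 0.51; adjusted p = 0.271). For both receptors KO1 replicate 2 was the highest library and KO2 replicate 2 the next, while KO1 replicate 3 lay within the WT range, as did KO2 replicate 1 for EPHB3. EPHA6 had 3.688, 3.703 and 1.448 in WT replicates 1 to 3, 6.417, 18.69 and 3.172 in KO1 replicates 1 to 3 and 7.480 and 7.333 in the KO2 pair (1.54 ± 0.60; adjusted p = 0.259). EPHA5 had 27.56, 25.27 and 18.45 in WT replicates 1 to 3, 20.82, 11.17 and 18.80 in KO1 replicates 1 to 3 and 15.05 and 16.35 in the KO2 pair (-0.53 ± 0.22; adjusted p = 0.272). EPHA10, which lacks kinase activity, had 4.012, 4.766 and 3.325 in WT replicates 1 to 3, 3.840, 0.3367 and 3.113 in KO1 replicates 1 to 3 and 3.897 and 0.8423 in the KO2 pair (-0.74 ± 0.69; adjusted p = 0.548). EPHA6 and EPHA5 each overlapped in 1 or more KO1 libraries, and EPHA10 was below 1 CPM in KO1 replicate 2 and KO2 replicate 2, with KO1 replicate 3 just under the WT range. The other 8 tested Eph receptors had edgeR log2 fold changes from -0.77 for EPHA3 (adjusted p = 0.334) to 0.90 for EPHA2 (adjusted p = 0.319).

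The lines were then compared separately; both comparisons with WT use the same 3 WT libraries. By edgeR, 0 members passed in KO1 against WT, KO2 against WT or KO2 against KO1 (0% of all genes in each). At an unadjusted edgeR p under 0.05, 6 members were higher in KO1 (5.74% of all genes) and 0 lower (2.37%), and in KO2 5 were higher (10.6%) and 3 lower (7.89%). DESeq2 called 1 member higher in KO1 (0.693% of all genes), SLIT2, and 3 higher in KO2 (3.29%), SLIT2, SLIT3 and UNC5C. It called 0 lower in either line (0.215% and 1.02% of all genes). Between the lines DESeq2 called 0 members (0.0215% of all genes higher and 0.0269% lower in KO2), and 0 had an unadjusted edgeR p under 0.05 (1.32% of all genes higher and 0.774% lower). The edgeR log2 fold change of SLIT2 was 1.55 in KO1 and 1.25 in KO2, that of UNC5C 1.47 and 2.22, and that of SLIT3 2.76 and 3.47.

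KO1 replicate 2 decided much of this comparison. Without it, edgeR called 7 members higher in KO2 against WT, among 10.3% of all genes, and 1 lower, among 6.45%. The 7 were SLIT3 (log2 fold change 3.49, adjusted p = 0.00499 by edgeR), UNC5C (2.22, 0.0229), NTNG1 (1.76, 0.0104), EFNA5 (1.61, 0.00377), EPHB4 (1.32, 0.0217), SLIT2 (1.26, 0.0256) and NEO1 (0.65, 0.0359), and the 1 lower was NTN4 (-1.90, 0.0106). KO2 against KO1 then gave SLIT3 (2.93, adjusted p = 0.0251 by edgeR) and EFNA5 (1.13, 0.0248) higher, among 3.8% of all genes, and DCC (-1.45, 0.03) lower, among 1.26%. In that fit the KO1 group held the 2 KO libraries whose summed mesenchymal level lay within the WT range, so line and mesenchymal RNA cannot be told apart there. SLIT2 differed from KO1 by -0.09 ± 0.30 (SE; adjusted p = 0.884 by edgeR) in the same fit.

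**Figure D3:**
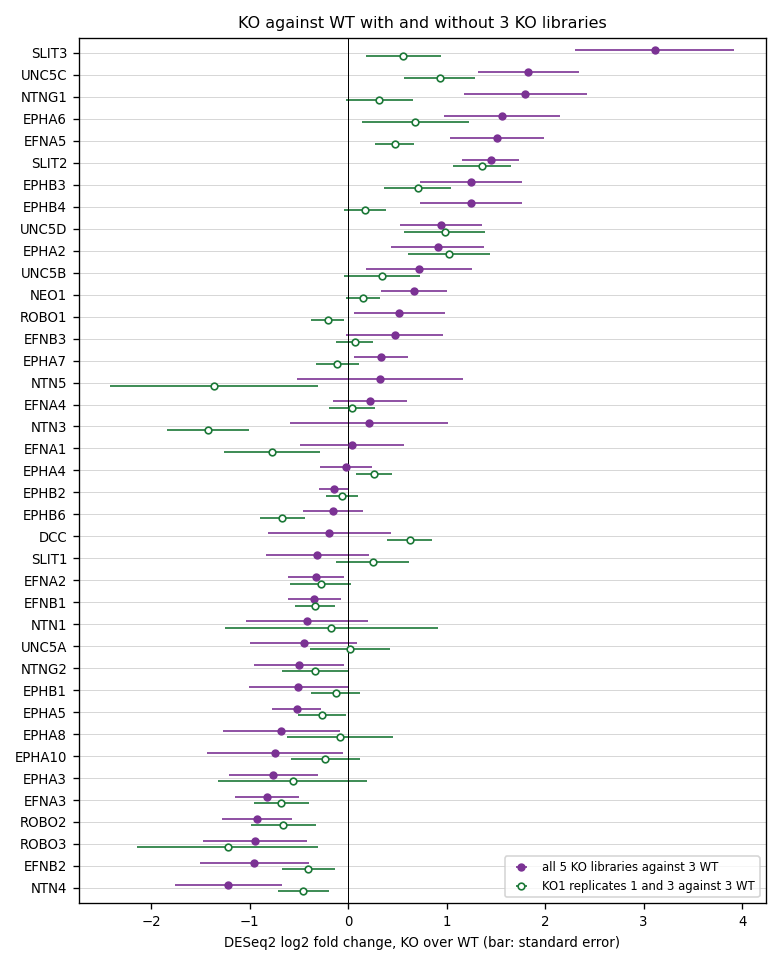
DESeq2 log2 fold changes, KO over WT, with standard errors as bars, for the 39 tested genes, from all 8 libraries (filled) and with KO1 replicate 2 and both KO2 libraries left out (open). SLIT2 kept nearly the same value, 1.45 and 1.36, while SLIT3 went from 3.11 to 0.56 and NTNG1 from 1.80 to 0.32.

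Leaving out those 3 libraries kept the sign of the DESeq2 log2 fold change in 30 of 39 members and turned it in 9, and the absolute value was larger with all 8 libraries in 30 of 39. Among KO1 replicates 1 and 3 against WT, DESeq2 called SLIT2 higher, among 0.865% of all genes. By edgeR 0 members passed there (0%); 5 of 40 were higher at an unadjusted p under 0.05 (4.47% of all genes) and 3 lower (3.82%). In those 5 libraries 7 members lay above WT without overlap (13.7% of all genes) and 5 below (12.3%).

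The partners and effectors of these ligands and receptors, taken as lists by known role, also went both ways, and no gene of them passed edgeR's false discovery rate. Of 24 partners of Ephs and ephrins (such as NCK1, VAV2 and ADAM10), 23 were tested, with a median edgeR log2 fold change of 0.02, and the authors' deposited table called 0 higher and 0 lower, beside 5.23% and 1.24% of all tested genes. Of 21 partners of Slit and Robo, 20 were tested, with a median of 0.17, and the authors' deposited table called 1 higher (5% of the list) and 0 lower. It was SDC2, a syndecan, one of the heparan sulfate proteoglycans that Slit binds. Of 24 partners of netrins, DCC and NEO1, 23 were tested, with a median of -0.10, and 2 were called higher (8.7%) and 0 lower in the authors' deposited table. They were the actin-binding ABLIM1 and the UNC5 ligand FLRT2. These shares lie near those of all genes. At an unadjusted edgeR p under 0.05 the netrin list had 4 higher (17.4%, against 11.5% of all genes) and 3 lower (13%, against 6.45%).

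SDC2 had 46.57, 27.87 and 54.11 CPM in WT replicates 1 to 3, 150.2, 526.1 and 79.71 in KO1 replicates 1 to 3 and 476.3 and 296.9 in the KO2 pair. ABLIM1 had 55.36, 62.92 and 39.90 in WT replicates 1 to 3, 132.4, 422.5 and 74.98 in KO1 replicates 1 to 3 and 489.3 and 243.6 in the KO2 pair. FLRT2 had 22.98, 16.42 and 26.71 in WT replicates 1 to 3, 43.20, 798.1 and 42.62 in KO1 replicates 1 to 3 and 124.0 and 460.3 in the KO2 pair. In all 3 genes every KO library lay above every WT library. Such genes made up 5% of the Slit and Robo list, 8.7% of the netrin list and 0% of the Eph list. Over all genes the share was 6.29%. SDC2, ABLIM1 and FLRT2 had their highest values in the 3 libraries with high mesenchymal RNA. Adjusted p was 0.000321, 0.00315 and 0.00222 in the authors' deposited table (DESeq2), and 0.00839, 0.0861 and 0.0102 by DESeq2 without those 3 libraries, where the log2 fold changes were 1.43, 0.97 and 0.96.

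In 5 partners every KO library lay below every WT library: RGMA, PAK1 and PTK2 of the netrin list (13%), SRGAP3 of the Slit and Robo list (5%) and VAV2 of the Eph list (4.35%), against 6.16% of all genes. RGMA, a ligand of NEO1, had 279.5 to 344.1 CPM in WT and 88.73 to 235.3 in KO, with an edgeR log2 fold change of -0.95 ± 0.34 (SE; adjusted p = 0.248). The kinase genes PAK1 and PTK2 had -0.58 (adjusted p = 0.243) and -0.35 (adjusted p = 0.248) by edgeR. SRGAP3, a GTPase-activating protein that binds Robo, had -0.76 (adjusted p = 0.271), and VAV2, an exchange factor downstream of Ephs, had -0.49 (adjusted p = 0.321). None of the 5 was called in the authors' deposited table. In RGMA, SRGAP3 and PTK2 the 3 libraries with high mesenchymal RNA were the 3 lowest, and in PAK1 and VAV2 they were not.

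H3K27me3 lay at many of these genes. A promoter peak, meaning a deposited peak within 2 kb of a start site, was found at 16 of the 39 tested members in the WT list (41.0%) and at 19 in the KO list (48.7%), against 15.4% and 16.0% of 15736 tested genes with a position. For the genes without a strand in the reference, 2 kb around both gene ends was used; with the 34 members that had a start site, the counts were 11 (32.4%) and 13 (38.2%), against 14.5% and 14.9% of 12418 genes. No test was made, since each genotype had 1 list, and the KO list had more tags behind it, 37.6 M against 22.4 M. Of all 41 members, 14 had a promoter peak in both lists, 2 in the WT list alone, 5 in the KO list alone and 20 in neither. A peak in both lists need not be the same peak. At UNC5B the WT peak (chr10:71214307-71214757) and the KO peak (chr10:71210865-71211381) did not overlap. By family, either list held a promoter peak at 6 of 14 Eph receptors, 2 of 8 ephrins, 2 of 3 Slits, 1 of 4 Robos, 5 of 6 netrins and netrin-Gs, 4 of 4 UNC5 genes and 1 of the pair DCC and NEO1.

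The most peak sequence in sum lay at SLIT1, whose span held 27 separate peaks covering 18980 bases in the WT list and 22 peaks covering 23866 bases in the KO list. NTN1 was next in the WT list with 9170 bases, against 10710 in KO, and EPHA10 next in the KO list with 14883, against 7497 in WT. The longest single peaks lay at the ROBO3 promoter, with 8154 bases in WT (chr11:124863162-124871315) and 9127 in KO (chr11:124862271-124871397). The strongest promoter peak lay at NTNG2, with the authors' fold over control at 20.55 in the WT list and 17.10 in the KO list. SLIT2 had no H3K27me3 peak in its span or promoter in either list.

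SLIT3, highest in the KO libraries with high mesenchymal RNA, had less peak sequence in the KO list. Its span held 10 peaks covering 5181 bases in the WT list and 3 covering 1901 in the KO list. The WT promoter peak, chr5:169299312-169301410, covers the whole SLIT3 sequence printed above with a fold over control of 7.90. The KO peak, chr5:169300264-169300712, is 449 bases long with a fold of 4.21, lies downstream of the start and does not reach that sequence.

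The genes with a promoter peak in the WT list alone were UNC5C and EPHB3. UNC5C had WT peaks at chr4:95546954-95547586 and chr4:95548156-95548788, both just downstream of the printed sequence, with folds of 3.92 and 3.21 and -log10 q of 4.1 and 4.2. EPHB3 had a WT peak of 670 bases at chr3:184562357-184563026, with a fold of 4.60 and a -log10 q of 8.9. With peaks of a -log10 q of at least 5 alone, UNC5C left the WT list and its count went from 16 to 15. Both genes had higher mean CPM in KO, 3.53-fold for UNC5C and 2.34-fold for EPHB3, of which UNC5C was called in the authors' deposited table.

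The genes with a promoter peak in the KO list alone were DCC, EFNA3, EPHA6, NTN3 and NTNG1. EFNA3 had the longest, 4584 bases at chr1:155079071-155083654 with a fold of 8.72 and a -log10 q of 34.5; it begins 0.23 kb after the start, and a WT peak lies inside it from 3.28 to 3.94 kb. DCC had a KO peak of 1265 bases at chr18:52340244-52341508 with a fold of 4.29. NTN3 had no strand in the reference, so its window was set around both gene ends. Its KO peaks, chr16:2467786-2469322 and chr16:2469427-2469738, lie outside the gene, chr16:2471297-2474145. They overlap that window by 338 bases in sum, with folds of 5.03 and 3.64. EPHA6 and NTNG1 each had a pair of KO peaks of 287 to 438 bases with folds from 3.28 to 4.51, and those of NTNG1 flank the sequence printed above. RNA in this class went both ways: the pooled edgeR log2 fold change was -0.83 for EFNA3 and -0.19 for DCC, and 1.54 for EPHA6, 1.77 for NTNG1 and 0.18 for NTN3.

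**Figure D4:**
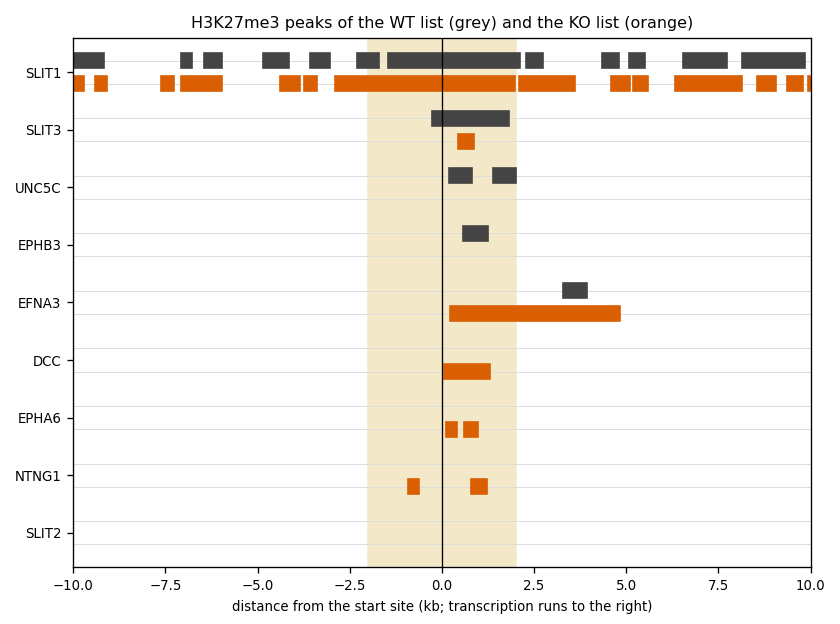
Deposited H3K27me3 peaks of the WT list (grey, upper) and the KO list (orange, lower) within 10 kb of the start site of 9 genes, with distance in kb along the direction of transcription and the 2 kb promoter window shaded. UNC5C and EPHB3 have grey peaks alone, DCC, EPHA6 and NTNG1 orange peaks alone, and SLIT2 none.

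Across the classes, the 14 members with a promoter peak in both lists had a median log2 fold change of -0.48, the 18 tested members with none 0.25, the 2 in the WT list alone 1.52 and the 5 in the KO list alone 0.18. Over all tested genes with a position the same medians were 0.28, -0.01, 0.80 and -0.26. Without the 3 libraries the medians of all genes were 0.18 for the WT list alone and -0.09 for the KO list alone, and those of the members 0.82 and 0.33. The 14 members with a peak in both lists were then at -0.15 and the 18 with none at -0.08. All genes of these classes were at -0.0 and -0.0. In RNA level, as the median log2 CPM with 0.5 added, the 14 members marked in both lists were at 4.17, 4.54 and 4.62 in the 3 WT libraries, and the 18 with no peak at 6.48, 7.22 and 6.81. Over all genes the same medians were 2.23 to 2.32 and 4.87 to 4.92. Marked members were thus lower than unmarked members in WT, and both classes sat above the same class of all genes; gene length was not taken into account.

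H3K36me3 peaks lay over 14 of the 39 tested members in the WT list (35.9%) and 6 in the KO list (15.4%). Of the 15736 tested genes with a position, 43.6% and 23.7% had one. Over all 41 members the counts were 15 (36.6%) and 6 (14.6%). The whole KO list was shorter, with 8937 peaks against 30144, although it had more tags, 44.3 M against 22.5 M. EPHB4 held the most H3K36me3 bases in WT, 7750 in 15 peaks against 878 in 2 peaks in KO, followed by EPHA2 with 5636 against 1904 and EFNB2 with 5388 against 1996. SLIT2 had 1 H3K36me3 peak in each list, of 305 and 200 bases. How often the 2 marks met over all genes was not counted. Over the lists of both genotypes, EFNA3 was the 1 member with an H3K27me3 promoter peak and an H3K36me3 peak over the gene. Its H3K27me3 promoter peak was in the KO list alone and its H3K36me3 peak in the WT list alone. No member thus had an H3K27me3 promoter peak and an H3K36me3 gene peak in the lists of the same genotype. Over the whole gene span, EFNA3 and EPHB2 had both marks in the WT lists. H3K27me3 covered 662 bases of EFNA3 and 341 of EPHB2 there, and H3K36me3 724 and 5042.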

How the data were processed

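RNA was measured in 8 libraries and histone marks in 9 ChIP samples. Per the submitters' processing notes, the authors used Salmon 1.1.0, DESeq2 1.26.0, Bowtie2 2.4.1 and GRCh38. The authors deposited estimated counts for each gene symbol, unnormalized. Which gene annotation they used, how transcripts were summed and whether strand was used is not stated in the labels. The authors' deposited comparison gives log2 fold changes with standard errors, a score (the Wald statistic), p-values and adjusted p-values. Peaks come from MACS2 2.2.7.1, run per the file headers with a q limit of 0.01 on 1 treatment file and 1 control file per list. For each peak the authors give a pileup signal, a fold ratio over control and a -log10 q-value. Coordinates are 1-based.

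Estimated counts were rounded. The test was the quasi-likelihood test of edgeR 4.0.16 in R 4.3.3 after filterByExpr and TMM scaling, adjusted by Benjamini-Hochberg over all genes, with both KO lines as 1 group or as 3 groups. CPM values are TMM-scaled. DESeq2 1.42.0 was the other tool, and for 99.99% of 35365 genes its log2 fold change matched the authors' to within 0.001. On simulated counts for the 18614 genes in the KO against WT design, the share of changed genes found at 2-, 4- and 8-fold was 10.4%, 62.7% and 78.8% for edgeR (2 false calls) and 34.3%, 82.1% and 90.9% for DESeq2 (65 false calls). The simulated libraries were drawn independently around 1 mean per gene and genotype. In the data KO1 replicate 2 and both KO2 libraries stood apart together, so the simulated shares need not hold for these libraries. Peaks were assigned by an overlap of at least 1 base.

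The members, the gene lists and the alternatives were chosen with earlier results of these data known. Values per library are given for members called in any edgeR contrast or the authors' table, the 12 with the lowest edgeR p, those with a promoter peak in 1 list only, those whose groups do not overlap, and the 3 with the most H3K27me3 bases in WT. EFNB2, ROBO1, ROBO3, NTNG2 and others outside this rule are given by ranges.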

Additional observations from a re-analysis of the deposited data

Results flagged for a closer look

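In 3 genes 1 of the 5 KO libraries stood far from the others, with a gap to the next library above Dixon's critical value for 5 samples. EFNB3, a B-type ephrin, had 424 CPM in KO2 replicate 1, and the next KO library had 148. UNC5B, a repulsive netrin receptor, had 123 in the same library, and the next had 44.7. EPHA6 had 18.7 in KO1 replicate 2, and the next had 7.48. Chance alone marks about 1 gene in 20, and 1072 of the 18614 tested genes (5.76%) had such a library, so 3 of 39 members is near the background.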

How the results depend on the processing

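By edgeR, 0 members were called in KO against WT with RLE scaling, with no filter, with each library left out in turn, without KO1 replicate 2 and both KO2 libraries, with 3 groups and with the replicate block. DESeq2 called 4 members higher in KO against WT, and with 1 library left out 1 to 8 higher and 0 to 3 lower, the most without KO1 replicate 3. Over all genes DESeq2 called 5.99% with all libraries and 2.44% to 13.7% with 1 left out, also the most without KO1 replicate 3. DESeq2 called 1 member higher and 1 lower without the 3 libraries, 1 in KO1 against WT and 3 in KO2 against WT. With 1 library left out, edgeR called 0 to 8 members in KO2 against WT and 0 to 3 in KO2 against KO1, the highest each time without KO1 replicate 2. The median log2 fold change of the members was -0.11 with 3 groups and -0.16 to 0.07 with 1 library left out. Members whose groups do not overlap numbered 4 to 6 higher and 3 to 7 lower with 1 library left out. The share over all genes was not counted for those fits, so these counts have no background and are no result about the members. Without the 3 libraries 7 members lay higher (13.7% of all genes) and 5 lower (12.3%). H3K36me3 peaks of at least 1000 bases in sum lay over 5 members in the WT list and 3 in the KO list. H3K27me3 promoter counts stayed at 14 to 18 (WT list) and 17 to 19 (KO list) under the other windows, overlaps, thresholds and equal list lengths. With the whole gene span as the window the order turned, with 18 in the WT list and 17 in the KO list. The cause of these differences was not tested.

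Deviations of same-numbered libraries from their group means had r from -0.321 to 0.267, and those of other pairs from -0.267 to 0.339. With groups of only 3 or 2 libraries this check cannot decide whether the numbers pair the samples. With the replicate block the members' median was -0.24, and the log2 fold change of NTN3 was -0.73.

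The named members had 456 alternative values, of which 404 kept direction and side of the threshold, 35 newly passed it and 17 changed sign. Without the 3 libraries DCC turned to 0.63 (0.62 by DESeq2), SLIT1 to 0.25 and NTN3 to -1.42 by either tool. By limma voom with sample weights NTN3 was at -0.32 and NTN1 at 0.23. With 1 library left out, edgeR gave -0.65 to 0.06 for SLIT1, -0.92 to 0.36 for NTN1, -0.51 to 0.07 for DCC and -0.65 to 0.46 for NTN3; DESeq2 gave -0.64 to 0.06, -0.91 to 0.36, -0.50 to 0.07 and -0.65 to 0.46. The DESeq2 fits that leave libraries out, voom and equal list lengths were chosen after seeing the data. Depth limits EPHA1, ROBO4, NTN5 and EPHA8, which lay near the filter. EPHA8 had 4 to 45 counts per library, and NTN5 had 3 to 34.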
